A study of Sus scrofa with 15 samples.

Results

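Mutant forms of human PKD2, Tg1 and Tg3, were compared with each other in pig kidney cells by mRNA sequencing. The comparison used the 3 Tg1 libraries and the 3 Tg3 libraries out of 15 libraries in the series. All 15 came from LLC-PK1, an established pig proximal tubule epithelial line, transiently transfected with a plasmid that the labels name FLAG-floxP-neo-pH11. In the WT and mutant plasmids its CAG promoter, which is active in most cell types, drives the human cDNA. Tg1 carries the missense change A1532T in the coding sequence, which is D511V in the protein, and Tg3 carries C2224T, a stop codon at residue 742 (R742X). The other 9 libraries were WT PKD2, a further missense mutant named Tg2 (T1967G, L656W) and NC, the empty plasmid without PKD2, with 3 libraries each. The cells kept their own pig PKD2, and pig PKD1, pig PKD2 and the human transcript were not analysed here, so the amount of each transgene is not given. The paper reports high human PKD2 RNA by qRT-PCR. Its anti-FLAG blot showed protein for WT, Tg1 and Tg2. Tg3 lacks the FLAG tag, so its protein was not shown. Replicates were wells of one transfected line, and p-values measure only the spread between these wells.

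PKD2 encodes polycystin-2, a cation channel of the primary cilium and the endoplasmic reticulum that works together with polycystin-1. Loss of either protein causes autosomal dominant polycystic kidney disease, in which tubule epithelial cells proliferate and secrete fluid, and calcium, cyclic AMP, mTOR and Wnt signalling are known to be disturbed. D511V lies in a transmembrane segment and is known to abolish channel activity, whereas R742X removes most of the C-terminal cytoplasmic tail, which carries the endoplasmic reticulum retention signal and the contacts with polycystin-1.

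The total count per library was between 20216200 and 26132196, and the 11553 genes whose average level reached 2 CPM (CPM being counts scaled to library size) were tested. Of 25 proximal tubule markers, 21 were among them. Of 15 markers of fibroblasts, endothelium and immune cells, 3 were tested: COL1A2, a fibrillar collagen chain, at 871 to 997 CPM in the 6 libraries, CD3E, a T cell receptor subunit, at 19.0 to 22.8 CPM, and CD68, a macrophage protein, at 1.63 to 2.60 CPM. None of these 3 was called different between Tg1 and Tg3 by the test described next (edgeR adjusted p from 0.582 to 0.967).

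Tg1 and Tg3 cells differed mainly in genes with lower expression in Tg1. A gene was called a differentially expressed gene (DEG) when edgeR's quasi-likelihood test gave a Benjamini-Hochberg adjusted p of 0.05 or less and the absolute log2 fold change was 0.26 or more. There were 71 DEGs (0.615% of genes tested), of which 64 were lower in Tg1 (0.554%) and 7 were higher (0.0606%). Without a correction for multiple tests, 1828 genes had p below 0.05, 1026 of them lower and 802 higher in Tg1. The 64 DEGs lower in Tg1 had log2 fold changes between -0.97 and -0.26, with a median of -0.37, whereas the median over all genes tested was 0.0017. They included regulators of cell division and DNA replication (RBL1, CDK6, E2F7, POLE, ANLN, KIF11), chromatin and transcription (KMT2A, AFF4, PHIP, SRCAP, MED13L), actin and adhesion (MICAL2, LPP, ITGA2, DDR2) and signalling (PRKAR2A, GNAQ, LRP6, CBL, ITPR2, NFAT5). Most of the 64 were of middle or high abundance. With the genes tested divided into 5 equal bins by mean expression, the bins held 5, 8, 18, 24 and 9 of them from the lowest to the highest, and the highest bin began at 97.5 CPM.

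**Figure D1:**
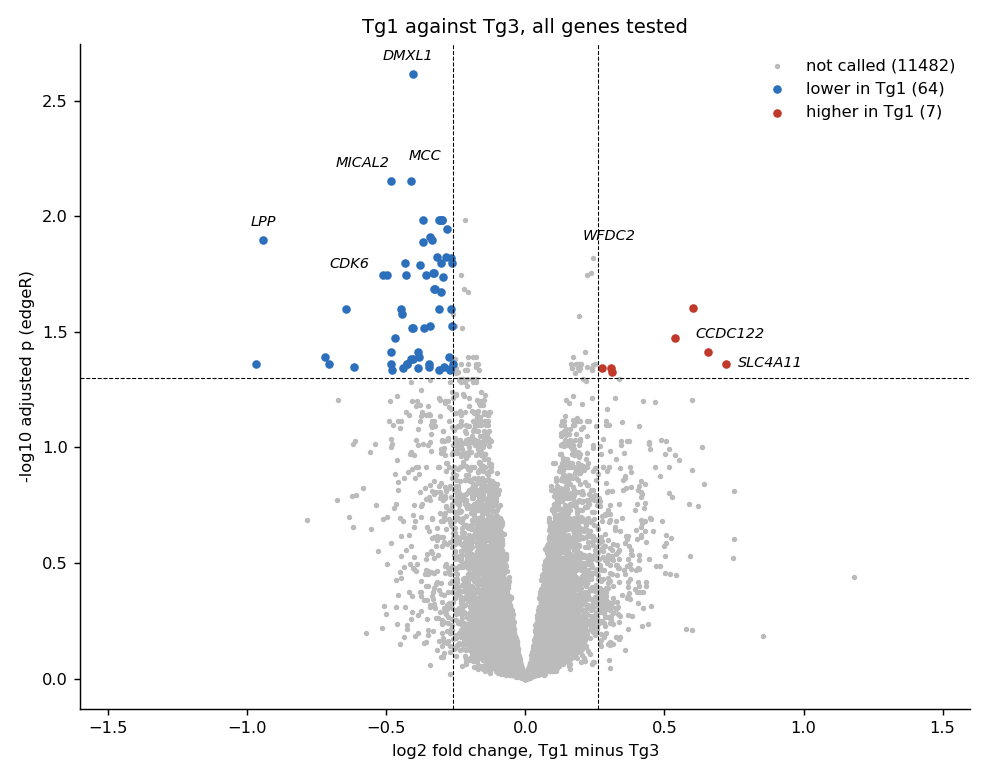
Each point is 1 of the 11553 genes tested, plotted by its log2 fold change of Tg1 minus Tg3 (x axis) and the -log10 of its edgeR adjusted p (y axis). Dashed lines mark the thresholds of 0.26 and 0.05, and the 64 DEGs lower in Tg1 (blue) outnumber the 7 higher in Tg1 (red).

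The number of DEGs depended on single libraries. Leaving out Tg1 replicate 1 left 4 DEGs and leaving out Tg1 replicate 2 left 6, whereas leaving out Tg1 replicate 3 raised the number to 115. Without Tg3 replicates 1, 2 or 3 the numbers were 14, 4 and 3. Of the 71 DEGs, DMXL1, MICAL2 and MCC were called in all 6 of these fits, 11 were called in none and 45 in 1. Averaged over the 64 genes, the log2 level relative to the mean of all 15 libraries was -0.36, -0.25 and -0.19 in Tg1 replicates 1, 2 and 3. In Tg3 it was 0.13, 0.16 and 0.13. For these 64 genes the Tg1 values were spread more widely, and Tg1 replicate 3 was the nearest to the other plasmids. The genes were selected on these same libraries, so their spread cannot show which wells were more variable in general. Pairwise chi-square values, divided by their degrees of freedom, were 10.5, 13.4 and 3.29 within Tg1. Within Tg3 they were 6.14, 2.90 and 10.4, so the ranges overlapped. With the 5 libraries of replicate 2 left out, edgeR called 0 DEGs, 1115 genes had an unadjusted p below 0.05, and the smallest adjusted p was 0.216; DESeq2 was not run on that subset.

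DMXL1, a subunit of the rabconnectin complex that regulates assembly of the proton-pumping V-ATPase, had the smallest p-value. Its level was 85.5, 92.1 and 95.3 CPM in the 3 Tg1 libraries and 119, 120 and 122 CPM in the 3 Tg3 libraries. Every Tg1 library lay below every Tg3 library, as in 13.1% of all genes tested, and below all 6 libraries of NC and WT as well. The log2 fold change was -0.40 (standard error 0.04, adjusted p = 0.00243, edgeR), or 75.7% of the Tg3 level, and the adjusted p was at most 0.0290 when any 1 of the 6 libraries was left out. The V-ATPase and lysosome genes did not all move the same way. Of 22 tested, DMXL1 included, 9 were lower and 13 higher in Tg1, and DMXL1 was the single DEG. WDR7, the partner of DMXL1 in the complex, and its paralog DMXL2 were at -0.20 and -0.21 on the log2 scale and were not called (edgeR adjusted p = 0.0935 and 0.108).

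MICAL2, a monooxygenase that oxidizes actin filaments and drives their depolymerization, was at 24.9, 26.2 and 28.7 CPM in Tg1 and at 37.96, 36.5 and 37.2 CPM in Tg3. The log2 fold change was -0.48 (standard error 0.06, edgeR adjusted p = 0.00702). MCC, a regulator of the cell cycle and of beta-catenin named for its mutation in colorectal cancer, was at 21.1, 21.0 and 19.8 CPM in Tg1 and 27.4, 27.8 and 27.0 CPM in Tg3, a difference of -0.41 on the log2 scale (standard error 0.05, edgeR adjusted p = 0.00702). In both genes every Tg1 library lay below every Tg3 library, as in 13.1% of all genes tested. The highest adjusted p (edgeR) with 1 library left out was 0.0417 for MICAL2 and 0.0473 for MCC.

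Among the DEGs with a symbol, the largest log2 fold change was that of LPP, a LIM-domain protein of focal adhesions and cell contacts. LPP was at 12.6, 18.8 and 19.7 CPM in Tg1 and at 31.8, 33.9 and 32.8 CPM in Tg3. Tg1 replicate 1 was the lowest of all 15 libraries, but the other Tg1 libraries were also below every library of the other plasmids. The mean in Tg1 was 52.0% of that in Tg3 (log2 fold change -0.94, standard error 0.15, edgeR adjusted p = 0.0127). LPP was called in 2 of the 6 fits that left out 1 library, and its highest adjusted p was 0.0629 (edgeR, without Tg3 replicate 2). In the list of actin, junction and adhesion genes, 36 were tested, 28 were lower in Tg1 and 3 were DEGs, against a share of 0.554% DEGs lower in Tg1 among all genes. The DEG of the list beside MICAL2 and LPP was ITGA2, the collagen-binding alpha 2 integrin. It was at 37.2, 38.3 and 41.0 CPM in Tg1 and 50.7, 48.0 and 49.7 CPM in Tg3. ITGA2 was called in 1 of the 6 fits, that without Tg1 replicate 3, and its adjusted p was 0.202 (edgeR) without Tg1 replicate 1. DDR2, a DEG named above, was not in the list. ROCK2, a kinase that contracts the actin cytoskeleton, had a log2 fold change of -0.27 but an adjusted p of 0.0668 (edgeR) and was not called.

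**Figure D2:**
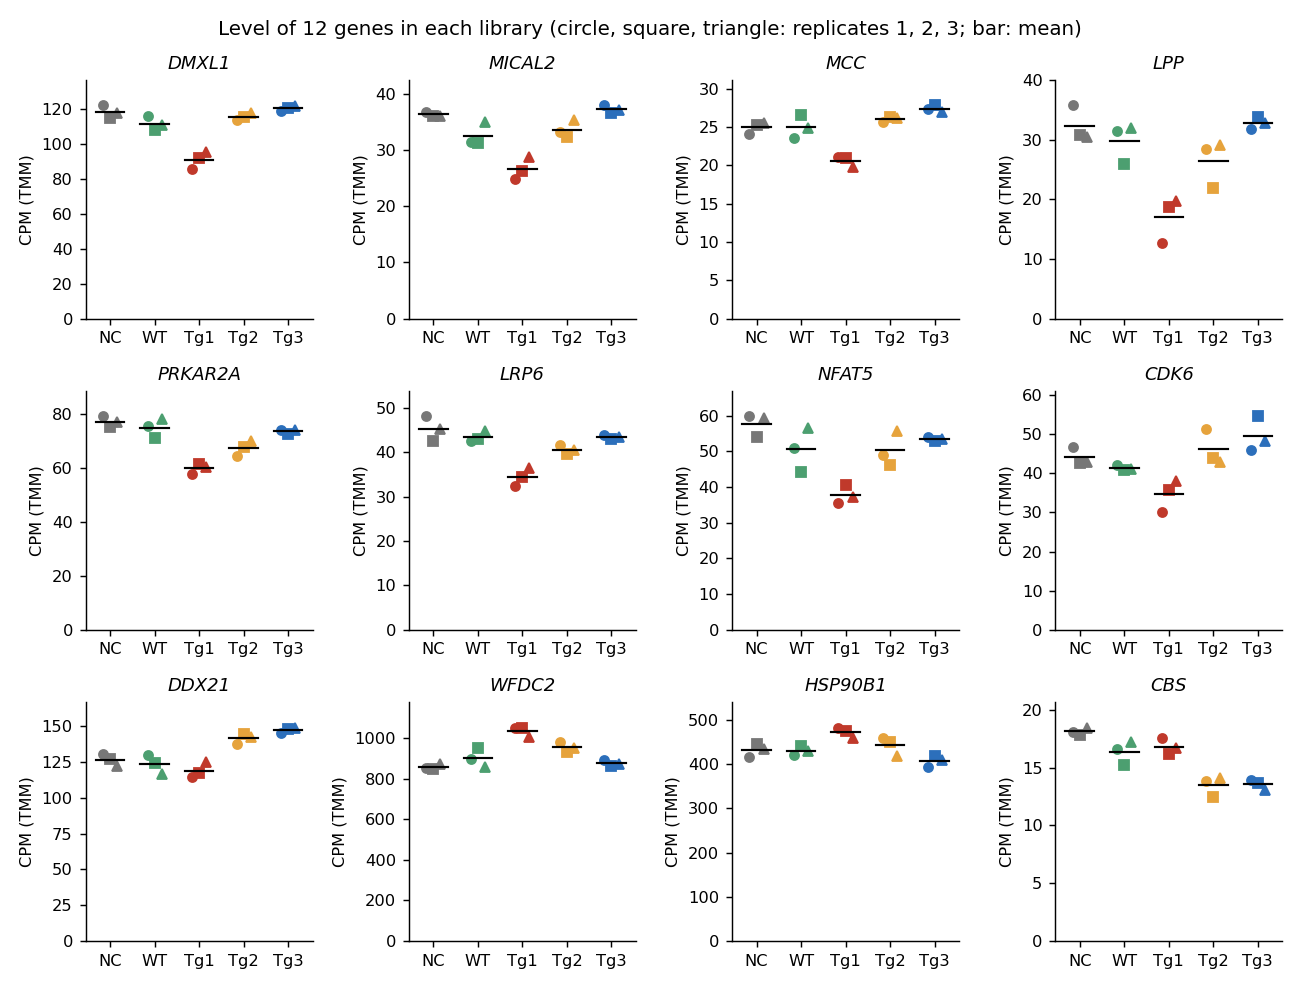
TMM-normalized CPM (y axis, from 0) of 12 genes in each of the 15 libraries (x axis, plasmid), where points are replicates 1 to 3 and the bar is the mean of 3. For DMXL1, MICAL2, MCC and LPP all 3 Tg1 points lie below the points of the other 4 plasmids, while CBS was lower in Tg3 than in NC, WT and Tg1.

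Of the other genes with the smallest p-values, RBL1, a pocket protein that restrains E2F target genes, was at 46.3, 43.8 and 45.5 CPM in Tg1 and 53.8, 58.2 and 55.8 CPM in Tg3 (log2 fold change -0.31, edgeR adjusted p = 0.0104). DDX21, an RNA helicase of ribosome biogenesis, was at 115, 117 and 125 CPM in Tg1 and 145, 148 and 149 CPM in Tg3 (log2 fold change -0.31, edgeR adjusted p = 0.0104). ADGRG6, an adhesion receptor that signals through cyclic AMP, and RAPGEF6, an exchange factor for the small GTPase Rap, had log2 fold changes of -0.28 and -0.34 (edgeR adjusted p = 0.0113 and 0.0122). In all 4 genes the groups did not overlap, as in the 13.1% of all genes tested with every Tg1 library below every Tg3 library. Each was called in 2 of the 6 fits that left out 1 library, those without Tg1 replicate 3 and without Tg3 replicate 1. The highest adjusted p from edgeR was 0.0725 for DDX21, ADGRG6 and RAPGEF6, without Tg1 replicate 1, and 0.0629 for RBL1, without Tg3 replicate 2. Among the 5 DEGs with a symbol that were lowest in Tg1 relative to Tg3, DGKH, a kinase that removes diacylglycerol, was at 5.53, 6.26 and 6.91 CPM in Tg1 and 9.80, 9.55 and 9.38 CPM in Tg3 (log2 fold change -0.62, edgeR adjusted p = 0.0448). CDK6, the cyclin D kinase of early G1, was at 30.2, 35.8 and 38.1 CPM in Tg1 and 45.9, 54.5 and 48.2 CPM in Tg3 (log2 fold change -0.51, edgeR adjusted p = 0.0180). DGKH was called in 1 of the 6 fits that left out 1 library and CDK6 in 2. Without Tg1 replicate 1 the adjusted p (edgeR) was 0.208 for DGKH and 0.109 for CDK6. In addition, 10 of the 64 DEGs have no symbol, among them ENSSSCG00000015531 with a log2 fold change of -0.30 and ENSSSCG00000006978 with -0.37 (edgeR adjusted p = 0.0104 for both).

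The 64 genes were described by position among the plasmids. The mean of Tg1 was the lowest of the 5 plasmids in 64 of 64, while the mean of Tg3 was the highest in 36. NC was nearer to Tg3 than to Tg1 in 57 of the 64, Tg2 in 60 and WT in 49. Their median log2 fold change was -0.31 for Tg1 minus NC and 0.04 for Tg3 minus NC, and it was -0.26 for Tg1 minus WT and 0.11 for Tg3 minus WT. These comparisons share the Tg1 or the Tg3 libraries with the selection of the genes, so the values are a description. DMXL1, for example, had log2 fold changes of -0.38 in Tg1 and 0.03 in Tg3 against NC, and LPP had -0.92 and 0.02. DDX21 differed from that order, with -0.09 in Tg1 and 0.22 in Tg3 against NC.

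**Figure D3:**
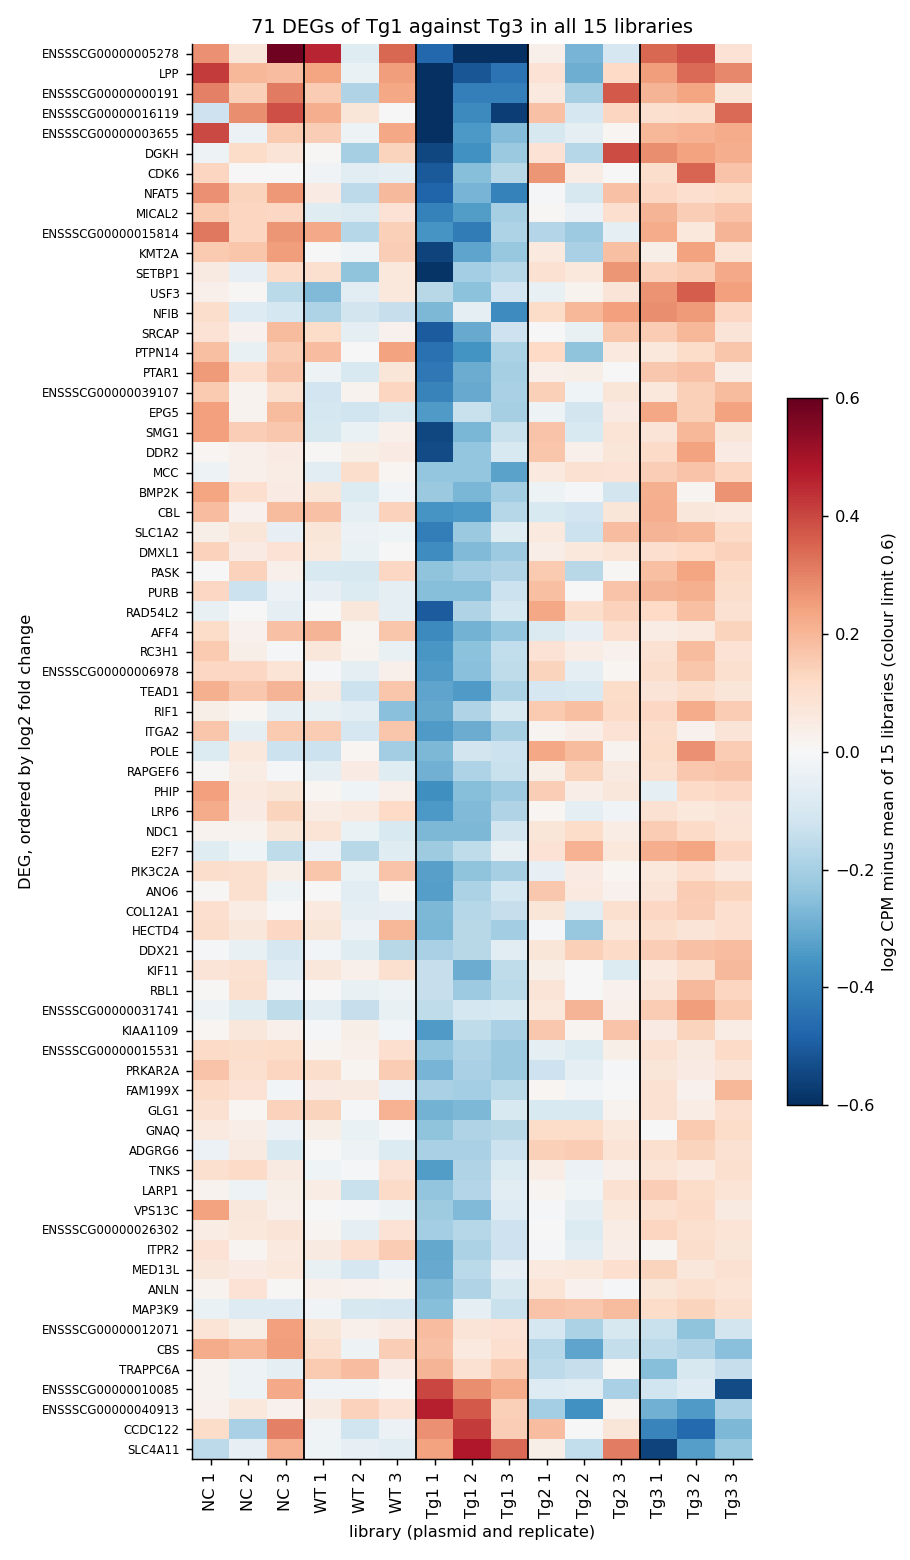
Colour shows the log2 CPM of each of the 71 DEGs (rows, ordered by log2 fold change) minus its mean over the 15 libraries (columns, by plasmid and replicate), limited to 0.6 in either direction. The Tg1 columns are the lowest block for the 64 genes in the upper part, and Tg1 replicate 1 is below Tg1 replicate 3 in 59 of these 64.

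In the lists of chromatin regulators, mitotic and centriole genes and DNA replication genes, nearly all members were lower in Tg1 than in Tg3. This also held when single libraries were left out, and 3, 2 and 1 members were DEGs. Among all genes tested, 0.554% were DEGs lower in Tg1, and 1026 of 11553 were lower with an unadjusted p below 0.05. These lists were chosen with earlier results of these data known. Of 39 chromatin regulators tested, 37 were lower in Tg1, 23 of them with an unadjusted p below 0.05, and the median log2 fold change was -0.17. The DEGs of this list were AFF4, KMT2A and PHIP. AFF4 is a scaffold of the super elongation complex, KMT2A a histone H3 lysine 4 methyltransferase and PHIP a bromodomain protein that binds histones. SRCAP and MED13L, DEGs named above, were not in the list. KMT2A was at 34.0, 40.2 and 42.7 CPM in Tg1 and 51.3, 59.2 and 53.1 CPM in Tg3 (log2 fold change -0.48, edgeR adjusted p = 0.0385), and AFF4 and PHIP had log2 fold changes of -0.38 and -0.34 (edgeR adjusted p = 0.0162 and 0.0300). KMT2A and AFF4 were each called in 1 of the 6 fits that left out 1 library, and PHIP in 2. Without Tg1 replicate 1 the adjusted p (edgeR) was 0.187 for KMT2A, 0.109 for AFF4 and 0.162 for PHIP. ASH1L, another histone methyltransferase, was at -0.21 with an adjusted p of 0.0540 (edgeR) and was not called. The mean level of the 39 genes relative to all libraries was -0.20, -0.12 and -0.09 log2 units in the Tg1 libraries and 0.03, 0.05 and 0.06 in the Tg3 libraries. Without any 1 library, or without the replicate 2 libraries, 36 to 38 of the 39 were lower in Tg1.

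Of 28 mitotic and centriole genes, 27 were lower in Tg1 (median log2 fold change -0.15), and 25 to 28 were lower when libraries were left out. ANLN, the actin-binding scaffold of the cytokinetic ring, was at 73.7, 78.3 and 83.0 CPM in Tg1 and 93.4, 94.8 and 93.8 CPM in Tg3 (log2 fold change -0.26, edgeR adjusted p = 0.0159). KIF11, the motor that separates the spindle poles, was at 60.5, 54.2 and 59.97 CPM in Tg1 and 69.3, 71.1 and 76.1 CPM in Tg3 (log2 fold change -0.31, edgeR adjusted p = 0.0253). CENPF, a kinetochore protein, had an adjusted p of 0.0452 (edgeR) with a log2 fold change of -0.25, just under the fold threshold. Of 28 DNA replication genes, 28 were lower in Tg1 than in Tg3 (median -0.18), and 26 to 28 when libraries were left out. Their mean level relative to all libraries was -0.133, -0.03 and 0.0296 log2 units in Tg1 and 0.0997, 0.227 and 0.0747 in Tg3. It was -0.115, -0.00586 and -0.195 in NC and -0.174, -0.0302 and -0.221 in WT, so the Tg1 libraries overlapped both. E2F7, a transcription factor that represses E2F targets, was the single DEG of the list. It was at 43.5, 45.3 and 48.8 CPM in Tg1 and 58.5, 59.4 and 54.9 CPM in Tg3 (log2 fold change -0.33, edgeR adjusted p = 0.0206). Its mean was 47.5 CPM in NC and 47.3 CPM in WT. POLE, a DEG named above, was not in the list (log2 fold change -0.35, edgeR adjusted p = 0.0449). MCM6, a subunit of the replicative helicase, was at -0.18 and was not called (edgeR adjusted p = 0.0523). With 1 library left out, ANLN, KIF11 and E2F7 were called only without Tg1 replicate 3, and their highest adjusted p-values were 0.1002 and 0.122 for ANLN and E2F7 (without Tg1 replicate 1) and 0.110 for KIF11 (without Tg1 replicate 2). Among all genes tested, 5704 were lower and 5849 higher in Tg1, so both directions were about equally common in the background.

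**Figure D4:**
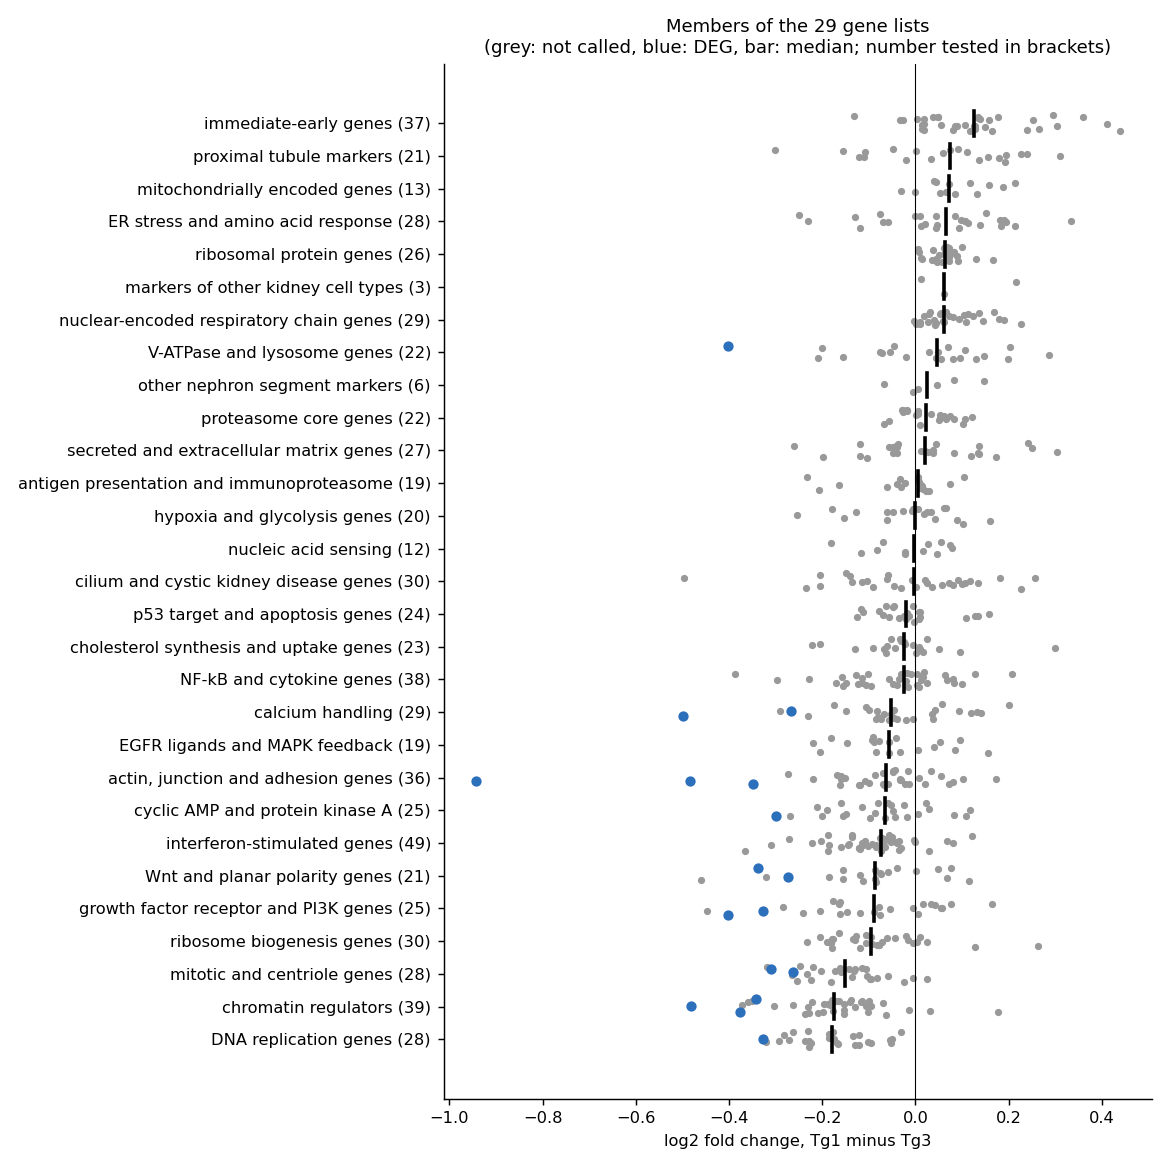
Each point is a tested member of 1 of 29 gene lists, plotted by its log2 fold change of Tg1 minus Tg3, with DEGs in blue, other members in grey and the list median as a black bar. The medians of the DNA replication, chromatin and mitotic lists lie at -0.18, -0.17 and -0.15, and those of the respiratory chain and ribosomal protein lists at 0.06.

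The lists of pathways linked to polycystins (cyclic AMP, calcium, Wnt, growth factor receptors) held 1 or 2 DEGs each, all lower in Tg1. Among all genes tested, 0.554% were DEGs lower in Tg1, and the lists were chosen with earlier results of these data known. In cyclic AMP signalling, 19 of 25 genes were lower and 1 was a DEG: PRKAR2A, the RII alpha regulatory subunit that holds protein kinase A inactive and tethers it to anchoring proteins. It was at 58.0, 61.5 and 60.2 CPM in Tg1 and 74.1, 72.7 and 74.3 CPM in Tg3 (log2 fold change -0.30, edgeR adjusted p = 0.0104). The groups did not overlap, and 13.1% of all genes tested had every Tg1 library below every Tg3 library. PRKAR2A was called in 2 of the 6 fits that left out 1 library, and its adjusted p was 0.0725 (edgeR) without Tg1 replicate 1. In calcium handling, 20 of 29 were lower and 2 were DEGs. One of them, NFAT5, is the transcription factor of the response to hypertonicity and does not itself handle calcium, although the list includes it. NFAT5 was at 35.4, 40.7 and 37.2 CPM in Tg1 and 53.9, 53.004 and 53.4 CPM in Tg3 (log2 fold change -0.50, edgeR adjusted p = 0.0180). ITPR2, an inositol trisphosphate receptor that releases calcium from the endoplasmic reticulum, had a log2 fold change of -0.27 (edgeR adjusted p = 0.0253), and its paralog ITPR1 had -0.29 with an adjusted p of 0.0628. NFAT5 and ITPR2 were called only without Tg1 replicate 3 when 1 library was left out, and their adjusted p-values were 0.110 and 0.130 without Tg1 replicate 1.

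In the Wnt list, 16 of 21 were lower in Tg1 and 2 were DEGs. LRP6, the Wnt co-receptor, was at 32.5, 34.4 and 36.4 CPM in Tg1 and 43.9, 43.2 and 43.5 CPM in Tg3 (log2 fold change -0.34, edgeR adjusted p = 0.0127), and TNKS, a poly-ADP-ribose polymerase that destabilizes axin, had -0.27 (edgeR adjusted p = 0.0406). In the growth factor receptor and PI3K list, 17 of 25 were lower and 2 were DEGs: PIK3C2A, a class II phosphoinositide 3-kinase of endocytosis and cilium function, at -0.33 (edgeR adjusted p = 0.0176), and CBL, the ubiquitin ligase of receptor tyrosine kinases, at -0.40 (edgeR adjusted p = 0.0303). LRP6, TNKS, PIK3C2A and CBL were also called only without Tg1 replicate 3, and without Tg1 replicate 1 their adjusted p-values were 0.0832, 0.161, 0.109 and 0.164. MTOR, the kinase of cell growth, passed the adjusted p (0.0474, edgeR) with a log2 fold change of -0.24, under the threshold. Among 30 cilium and cystic kidney genes, 15 were lower and 15 higher, and edgeR and DESeq2 each called 0. With an unadjusted p below 0.05, 4 were lower and 2 higher, against 1026 and 802 of 11553 among all genes tested. PKHD1, the gene of recessive polycystic kidney disease, was at 132, 134 and 136 CPM in Tg1 and 162, 154 and 157 CPM in Tg3, a log2 fold change of -0.23 with an adjusted p of 0.121 (edgeR).

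The 7 DEGs higher in Tg1 had log2 fold changes between 0.28 and 0.72. SLC4A11, a membrane transporter of protons and water, was at 3.31, 3.90 and 3.54 CPM in Tg1 and 1.90, 2.22 and 2.39 CPM in Tg3 (log2 fold change 0.72, standard error 0.15, edgeR adjusted p = 0.0437). CCDC122, a coiled-coil protein, was at 5.48, 6.07 and 5.04 CPM in Tg1 and 3.45, 3.28 and 3.77 CPM in Tg3 (log2 fold change 0.66, edgeR adjusted p = 0.0385). CBS, the cystathionine synthase of transsulfuration, was at 17.5, 16.2 and 16.7 CPM in Tg1 and 13.9, 13.7 and 13.1 CPM in Tg3 (log2 fold change 0.31, edgeR adjusted p = 0.0452), and TRAPPC6A, a subunit of a vesicle tethering complex, had the same log2 fold change with an adjusted p of 0.0471. In 6 of the 7 genes Tg3 had the lowest mean of the 5 plasmids, and in 5 of the 7 Tg1 had the highest. The median log2 fold change of the 7 was 0.20 for Tg1 minus NC and -0.31 for Tg3 minus NC. These comparisons share libraries with the selection of the genes, so the values are a description. The gene in which Tg3 was not the lowest was CBS, at means of 13.6 CPM in Tg3, 13.5 CPM in Tg2, 18.1 CPM in NC and 16.4 CPM in WT. SLC4A11, CBS and TRAPPC6A were called in none of the fits that left out 1 library, where their lowest adjusted p-values were 0.0588, 0.0680 and 0.0784. CCDC122 was called only without Tg1 replicate 3.

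Several abundant genes were higher in Tg1 with an adjusted p under 0.05 but a log2 fold change under 0.26, so they were not called. WFDC2, a secreted protease inhibitor known as HE4, was at 1048, 1052 and 1007 CPM in Tg1 and 892, 865 and 870 CPM in Tg3 (log2 fold change 0.24, edgeR adjusted p = 0.0152). HSP90B1, the endoplasmic reticulum chaperone GRP94, was at 483, 475 and 460 CPM in Tg1 and 394, 418 and 410 CPM in Tg3 (0.21, edgeR adjusted p = 0.0385). KIF12, a kinesin of kidney epithelium linked to cyst severity in mice, was at 96.6, 95.2 and 97.3 CPM in Tg1 and 82.6, 85.3 and 85.1 CPM in Tg3 (0.19, edgeR adjusted p = 0.0269). With 1 library left out, the highest adjusted p (edgeR) was 0.1002 for WFDC2 and 0.188 for HSP90B1, both without Tg1 replicate 1. For KIF12 it was 0.124, without Tg3 replicate 1. The groups did not overlap in any of the 3, but 11.8% of all genes tested had every Tg1 library above every Tg3 library. HSPA5, the chaperone BiP, had a log2 fold change of 0.18 with an adjusted p of 0.0762 (edgeR). In the list of ER stress and amino acid response genes, 20 of 28 were higher in Tg1, and edgeR and DESeq2 each called 0. With an unadjusted p below 0.05, 7 were higher and 1 was lower. Among all genes tested, 802 of 11553 were higher and 1026 lower at that limit.

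Genes of the translation and respiration machinery had small values in the same direction. All 26 ribosomal protein genes tested were higher in Tg1 (median log2 fold change 0.06) and so were 28 of 29 nuclear-encoded respiratory chain genes (median 0.06), but edgeR and DESeq2 each called 0 in both lists. With libraries left out, up to 3 of the 26 and up to 5 of the 29 were lower in Tg1. With all libraries, 5 of the 26 and 8 of the 29 had an unadjusted p below 0.05, all higher in Tg1. Among all genes tested, 802 of 11553 were higher at that limit. RPL7, a protein of the large ribosomal subunit, was the one with the smallest p-value in its list, at 0.13 with an adjusted p of 0.0889 (edgeR). COX5A, a subunit of cytochrome oxidase, was at 0.15 with an adjusted p of 0.0836. In the list of ribosome biogenesis factors, in contrast, 25 of 30 were lower in Tg1 (median -0.09) and both tools called 0. With an unadjusted p below 0.05, 8 were lower, against 1026 of 11553 among all genes tested. POLR1A and POLR1B, the large subunits of RNA polymerase I, passed the adjusted p (0.0438 and 0.0448, edgeR) with log2 fold changes of -0.23 and -0.18, under the threshold.

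No interferon-stimulated or immediate-early gene was called. Of 49 interferon-stimulated genes, 45 were lower in Tg1 (median -0.07), but none had an unadjusted p below 0.05 and edgeR and DESeq2 called 0. Without single libraries or the replicate 2 libraries, the number lower ranged from 16 to 46: it was 16 without Tg1 replicate 1 and 22 without Tg3 replicate 2, with medians of 0.04 and 0.01, and 35 without the replicate 2 libraries, with a median of -0.03. The medians without Tg1 replicates 2 and 3 and Tg3 replicate 3 were -0.13, -0.15 and -0.16. Their mean level was -0.21, 0.16 and 0.21 log2 units in the Tg1 libraries and 0.12, 0.34 and 0.01 in the Tg3 libraries, which overlap. Of 37 immediate-early genes, 34 were higher in Tg1 (median 0.13) and 0 were called by either tool. With an unadjusted p below 0.05, 3 were higher, against 802 of 11553 among all genes tested. The number higher was 26 without Tg1 replicate 3 and also 26 without the replicate 2 libraries, with medians of 0.06 and 0.05, and the median was 0.07 without Tg3 replicate 2 and 0.21 without Tg1 replicate 1. MYC, a growth-promoting transcription factor, was at 258, 286 and 313 CPM in Tg1 and 293, 281 and 274 CPM in Tg3. Its difference had a 95% interval of -0.13 to 0.16 on the log2 scale. ADM, which encodes the vasodilator adrenomedullin, had an interval of -0.04 to 0.36, and IER3, a stress-inducible survival gene, an interval of -0.15 to 0.24. In all 3 genes the groups overlapped.

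Of the 71 DEGs, 71 had no overlap between the 3 Tg1 and the 3 Tg3 libraries, and the two-sided exact permutation test gave p = 0.1 for each, the smallest it can give with 3 against 3. Among all genes tested, 1519 (13.1%) had every Tg1 library below every Tg3 library and 1362 (11.8%) had every Tg1 library above, so separation alone does not set the DEGs apart.

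**Figure D5:**
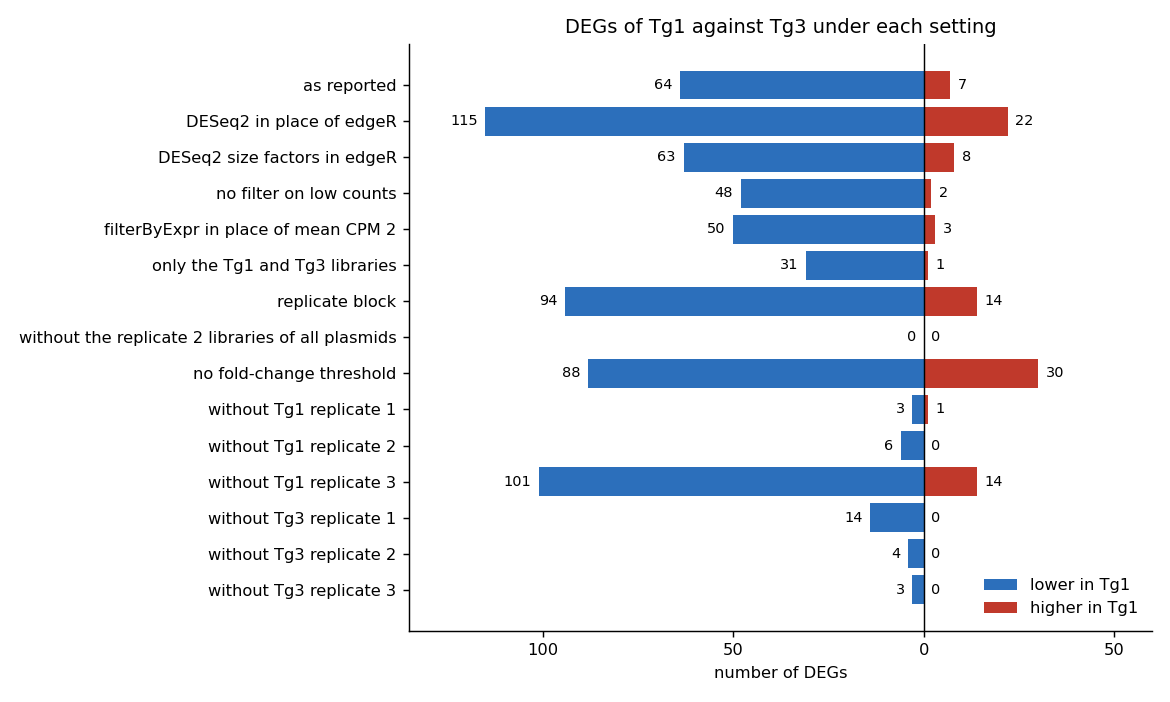
Bars show the number of DEGs lower (left, blue) and higher (right, red) in Tg1 than in Tg3 under the reported setting and 14 alternatives. Lower DEGs were the larger group in every setting with a DEG, and the number fell to 3 to 14 when Tg1 replicate 1 or 2 or any Tg3 library was left out.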

How the data were processed

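Poly(A) RNA of 15 transfected LLC-PK1 cultures was sequenced. The authors quantified reads with Salmon against the Ensembl cDNA set of the pig, and the deposited values are whole-number counts per Ensembl gene, not normalized between libraries (strandedness is not given in the sources used here). Transcripts that resemble a paralog can share reads in such counts. Groups and replicate numbers came from the labels. Of 16660 genes, 11553 averaged at least 2 CPM across all columns and were tested (99.8% of counts). Differential expression was tested in R 4.3.3 by edgeR 4.0.16: TMM factors were computed, the 5 plasmid means were fitted jointly over the 15 libraries with glmQLFit, the contrast Tg1 minus Tg3 was tested with glmQLFTest, and p-values were adjusted by Benjamini-Hochberg. DESeq2 1.42.0 was an alternative, as were other filters, size factors, the 6 libraries alone, a replicate block, and fits without single libraries. Levels are TMM-normalized CPM.

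The members and the 29 gene lists were chosen with earlier results of these data known. The genes named were the 10 DEGs in each direction with a symbol, no overlap and the smallest adjusted p (with fewer than 5 such DEGs, the 10 genes with the smallest p), the 5 with the largest fold change, up to 4 members of each list by p-value, MYC, ADM and IER3, and up to 2 identifiers without a symbol. Other DEGs are named by group only, after their values were seen. Symbols came from the study's tables (1431 genes) and a reference table (8754). Replicates of a plasmid differed by more than counting noise (chi-square per degree of freedom 2.90 to 13.4 in Tg1 and Tg3) and were counted separately. Deviations from the plasmid mean were correlated between libraries. For Tg1 and Tg3 libraries of the same number the correlation was 0.109, 0.136 and -0.354 for replicates 1, 2 and 3 (mean -0.036). Between Tg1 and Tg3 libraries of different numbers it ranged from -0.432 to 0.4. Over all plasmids the mean was 0.14 for libraries with the same number, with a lowest value of -0.361, and -0.071 for the rest. Among the replicate 2 libraries of all plasmids it ran from 0.101 to 0.544. The cause of this pattern was not tested.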

Additional observations from a re-analysis of the deposited data

How the results depend on the processing

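The 71 DEGs became 137 with DESeq2 in place of edgeR (115 lower and 22 higher in Tg1, 68 of the 71 among them), and 118 without the fold threshold, of which 30 were higher and 74.6% lower, against 90.1% with it. The 6 libraries fitted alone gave 32 (31 lower, 1 higher), with 24 of the 71. With the replicate block there were 108, 94 lower and 14 higher, but same-numbered libraries shared their deviations only in part (mean correlation 0.14 over all plasmids, -0.036 between Tg1 and Tg3) and were not treated as pairs. Without the replicate 2 libraries there were 0 in all, 0 lower and 0 higher, from fewer samples. Higher DEGs numbered 2 with no filter on low counts and 3 with filterByExpr. With single Tg1 or Tg3 libraries left out, the number ranged from 3 to 115 in all, from 3 to 101 lower and from 0 to 14 higher. The cause of these changes was not tested. Over all alternatives, 1578 values of named genes kept their direction and their side of the threshold. They include values of genes that were not DEGs, which had no call to lose. A further 199 values, all of DEGs, kept their direction but were no longer called. Of the 71 DEGs, 45 were called in 1 of the 6 fits that left out 1 library, and 11 in none. Another 11 values became called and 6 reversed, all 6 in genes not called. IER3 was at -0.0237 and SLC12A1 at -0.0238 without the replicate 2 libraries. With 1 library left out, MYC ranged from -0.0564 (without Tg1 replicate 3) to 0.0812. In the same fits SLC12A1 ranged from -0.0139 (without Tg1 replicate 1) to 0.136 and CD3E from -0.0700 (without Tg1 replicate 3) to 0.0673. The counts of lower and higher members per list were added after the data were seen. Low counts limit genes near 2 CPM, such as CD68, whose 95% interval ran from -0.17 to 0.60.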

Other observations

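Proximal tubule markers were mostly higher in Tg1 than in Tg3, with 14 of 21 in that direction and a median log2 fold change of 0.07, but edgeR and DESeq2 each called 0. With an unadjusted p below 0.05, 7 were higher. Among all genes tested, 1828 of 11553 were below that limit, 802 of them higher and 1026 lower in Tg1. AQP1, the water channel of the proximal tubule, was at 308, 266 and 261 CPM in Tg1 and 233, 200.5 and 240 CPM in Tg3 (edgeR adjusted p = 0.277). The remaining 7 of the 21 markers were lower in Tg1, down to a log2 fold change of -0.30. With libraries left out, 6 to 8 of the markers were lower. The 22 proteasome core genes had a median of 0.02 with 15 higher in Tg1, the 24 p53 target and apoptosis genes one of -0.02 with 16 lower, and the 23 cholesterol genes one of -0.02 with 14 lower. In each of these 3 lists both tools called 0, and the genes with an unadjusted p below 0.05 numbered 3, 0 and 3. With libraries left out, the members lower in Tg1 ranged from 2 to 10 of the 22, from 7 (without Tg3 replicate 2) to 19 (without Tg3 replicate 3) of the 24, where the median went from 0.03 to -0.06, and from 12 to 20 of the 23. The remaining lists had 0 DEGs by either tool: 6 of 12 nucleic acid sensing genes, 8 of 19 antigen presentation genes, 23 of 38 NF-kB and cytokine genes, 13 of 19 EGFR ligand and MAPK feedback genes, 10 of 20 hypoxia and glycolysis genes, 2 of 13 mitochondrially encoded genes, 12 of 27 secreted and matrix genes and 2 of 6 markers of other nephron segments were lower in Tg1. In that order, 0, 0, 0, 1, 1, 3, 2 and 0 members had an unadjusted p below 0.05. These directions depended on single libraries in several lists. The number lower ranged from 3 (without Tg1 replicate 1 or Tg3 replicate 2) to 17 (without Tg3 replicate 3) of the antigen presentation genes, with medians from 0.07 to -0.06, and from 12 (without Tg1 replicate 1) to 31 (without Tg1 replicate 3) of the NF-kB and cytokine genes, with medians from 0.04 to -0.07. It ranged from 4 to 8 for nucleic acid sensing, 11 to 14 for EGFR ligands and MAPK feedback, 7 to 13 for hypoxia and glycolysis, 0 to 5 for mitochondrially encoded, 11 to 15 for secreted and matrix genes and 1 to 3 for the other nephron segments.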
